A study of Mus musculus with 6 samples.

Results

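Toll-like receptors and the proteins that work directly with them were examined in RNA from the aortic arch, through 10 genes chosen by name: the receptor genes Tlr2, Tlr3, Tlr4, Tlr7 and Tlr13, the coreceptor and accessory genes Cd14, Ly96 and Ly86, and the signalling genes Myd88 and Irak4. All 10 were found, by Ensembl identifier, among the 14298 genes of the deposited table. The study sequenced polyA RNA of adult C57/BL6 mice, 3 libraries from control and 3 from knockout arches. Every animal lacked ApoE and was homozygous for a floxed allele of Rbpj, which encodes the transcription factor that Notch receptors act through, and every animal received tamoxifen for 1 week at 8 weeks of age and then a high-fat diet for 6 weeks. Cdh5-CreERT, a recombinase that tamoxifen switches on and that the promoter of an endothelial cadherin gene drives, was present in knockout mice and absent from controls. The groups therefore differ in the presence of the recombinase as well as in the deletion, and the deletion is meant for endothelial cells while the RNA came from the whole arch.

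Toll-like receptors are membrane proteins that bind molecules of microbes and of damaged cells. Most of them pass the signal through the adaptor Myd88 to the kinase Irak4 and on to NF-kappaB and interferon regulatory factors, while Tlr3 uses another adaptor, Ticam1. Macrophages carry most of the family, endothelial cells carry some of it, and signalling through Tlr2, Tlr4 and Myd88 is known to bear on lesion growth in ApoE-deficient mice.

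Levels are normalised CPM, in which 0.5 is added to the reads and the library size is scaled, and libraries are called by the number in their column (controls S591, S592 and S594, knockouts S595, S598 and S599). Over the 14298 genes listed, libraries held between 5904504 and 10072495 reads. The design text counts 3 mice per group, the labels do not tie a library to an animal, and p-values measure the spread between these libraries. Rbpj itself read 174, 191 and 200 in the controls S591, S592 and S594 and 169, 197 and 212 in the knockouts S595, S598 and S599 (limma, adjusted p = 0.923). That whole-tissue value does not check a deletion in the endothelium. Smooth muscle markers of the arch wall summed to 13060 to 22908 over 9 genes in the controls and to 23192 to 31547 in the knockouts, with no overlap. All 9 had positive log2 fold changes (median 0.66), against 6828 of all 14298 genes, and 0 passed limma's adjusted threshold. Every knockout library lay above every control library for 5 of the 9, where this held for 1617 of all 14298 genes. Markers of airway epithelium summed to 5.15 to 16.8 in the controls and 65.9 to 89.0 in the knockouts. Of 6 airway markers 4 were measured, all with positive log2 fold changes, and 3 had every knockout above every control. Scgb1a1 and Bpifa1 passed limma's adjusted threshold (adjusted p = 0.0317 each), 2 of the 3 genes that did so over the whole table. Markers of T cells and thymocytes summed to 32.6 to 43.9 in the controls against 30.1, 208 and 94.8 in S595, S598 and S599. Markers of adipocytes (7 genes) summed to 2616, 631 and 1311 in S591, S592 and S594. In S595, S598 and S599 they summed to 1308, 872 and 1027. The part of any of these in the values below was not tested.

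Transcripts of the surface receptor Tlr2, the endosomal receptor Tlr13, the coreceptor Cd14, the accessory protein gene Ly86 and the adaptor Myd88 stood 1.61- to 3.59-fold lower in the knockout arches, with no overlap between the groups. Tlr4 and its partner Ly96 overlapped between the groups. All 10 genes had negative log2 fold changes (knockout minus control, on the log2(CPM + 1) scale), with a median of −0.60 against −0.018 over all 14298 genes, of which 52.2% were negative. None passed the threshold of 0.05 on limma's adjusted p (Benjamini-Hochberg over the whole table), which 0.0% of all genes passed in the lower direction. Their adjusted p-values ran from 0.107 to 0.718. At an unadjusted p of 0.05, 7 of the 10 were lower and 0 higher, where 12.0% of all genes were lower. Every knockout library lay below every control library, that is the groups were apart, for 6 of the 10, where this held for 14.2% of all genes. After scaling to the library total in place of the deposited scaling, 4 of the 10 (Tlr2, Cd14, Ly86 and Myd88) were apart, against 10.3% of all genes. Under that scaling the genes at an unadjusted p of 0.05 divided into 1443 higher and 1392 lower, against 1150 and 1710 under the deposited scaling, and into 1540 and 1430 after quantile normalisation.

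**Figure D1:**
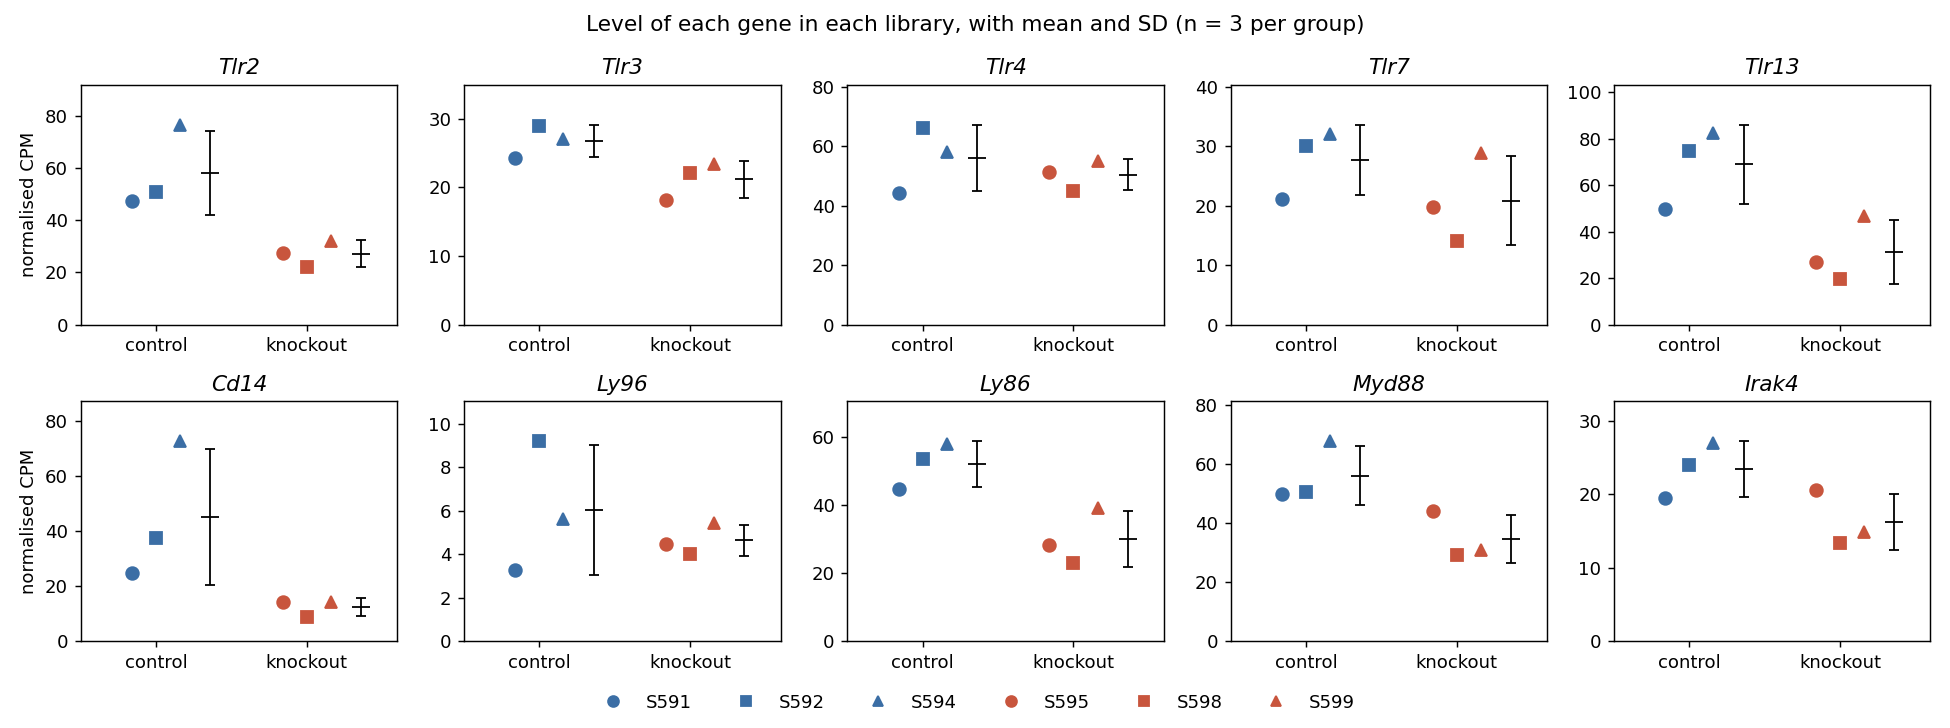
Level of each of the 10 genes (y axis, normalised CPM from 0) in the 3 control and 3 knockout libraries, 1 symbol per library, with the mean and SD of each group as a bar, and an axis of its own per gene. The knockout libraries lie below all controls for Tlr2, Tlr3, Tlr13, Cd14, Ly86 and Myd88, and the groups overlap for Tlr4, Tlr7, Ly96 and Irak4, for Tlr7 and Irak4 through 1 knockout library each.

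Other tests placed the same values on either side of the threshold. DESeq2 on the recovered reads called 5 of the 10 lower (Cd14 with an adjusted p of 4.68e-04, Tlr2 with 0.00166, Tlr13 with 0.0161, Ly86 with 0.0220 and Myd88 with 0.0490), where it called 4.56% of the 13450 genes it tested lower. The edgeR quasi-likelihood test and limma-voom called 0 of the 10, with edgeR adjusted p-values from 0.104. Limma with estimated library weights called the same 5 genes as DESeq2, where it called 5.06% of all genes lower. Without control S591, limma called Cd14 (adjusted p = 0.0332) and Tlr2 (adjusted p = 0.0400), where it called 3.29% of all genes lower.

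Among the surface receptors, Tlr2, which binds bacterial lipoproteins together with Tlr1 or Tlr6, read 47.2, 50.6 and 76.5 in the controls S591, S592 and S594 and 27.5, 22.0 and 32.2 in the knockouts S595, S598 and S599. The lowest control lay well above the highest knockout, and S594 stood apart at the top. The means were 58.1 ± 16.0 and 27.2 ± 5.07 (SD, n = 3 each), a 2.13-fold difference, with a log2 fold change of −1.05 and a 95% interval from −1.54 to −0.56 (limma, adjusted p = 0.107).

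Tlr4, the receptor of bacterial lipopolysaccharide, read 44.3, 66.2 and 58.0 in the controls and 51.5, 44.9 and 55.1 in the knockouts. The lowest value of all was a control, S591, while the other controls lay above every knockout. The means were 56.2 ± 11.0 and 50.5 ± 5.20, with a log2 fold change of −0.14 and a 95% interval from −0.51 to 0.24 (limma, adjusted p = 0.678). That interval holds no difference and also a level 0.702 times that of the controls. The log2 fold change was −0.30 without control S591 and −0.011 without control S592.

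Among the receptors of nucleic acids in endosomes, Tlr13, which binds bacterial ribosomal RNA, read 49.8, 74.8 and 82.3 in the controls and 27.2, 19.8 and 46.6 in the knockouts. The groups came close at S591 and S599, which were 49.8 and 46.6. The means were 69.0 ± 17.0 and 31.2 ± 13.9, a 2.21-fold difference, with a log2 fold change of −1.17 and a 95% interval from −1.90 to −0.45 (limma, adjusted p = 0.125).

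Tlr7, which binds single-stranded RNA, read 21.1, 30.1 and 32.0 in the controls and 19.7, 14.0 and 28.9 in the knockouts. Knockout S599 lay within the range of the controls. The log2 fold change was −0.43 with a 95% interval from −1.05 to 0.19 (limma, adjusted p = 0.410). It was −0.19 without knockout S598 and −0.68 without knockout S599.

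Tlr3, which binds double-stranded RNA, read 24.3, 28.9 and 27.1 in the controls and 18.2, 22.0 and 23.4 in the knockouts. The groups were apart by less than 1 CPM, between S591 and S599. The means were 26.7 ± 2.34 and 21.2 ± 2.69, a 1.26-fold difference, with a log2 fold change of −0.33 (limma, adjusted p = 0.246), and 7.32% of the exon bases of Tlr3 overlap an antisense gene, Gm45542, whose reads an unstranded library cannot tell apart.

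Of the proteins that present ligands, Cd14, which hands lipopolysaccharide to Tlr4 and lipoproteins to Tlr2, had the lowest fold change of the 10. It read 24.8, 37.6 and 72.5 in the controls and 14.4, 8.82 and 14.4 in the knockouts. The controls spread widely among themselves, and the lowest of them was still above all knockouts. The means were 45.0 ± 24.7 and 12.5 ± 3.21, a 3.59-fold difference, with a log2 fold change of −1.66 and a 95% interval from −2.52 to −0.80 (limma, adjusted p = 0.111).

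Ly96, whose product holds the lipid of lipopolysaccharide within the Tlr4 complex, read 3.29, 9.19 and 5.64 in the controls and 4.49, 4.001 and 5.43 in the knockouts. With 18 to 68 reads per library it was the least covered of the 10 genes, and the control values bracketed the knockout values. The log2 fold change was −0.24 with a 95% interval from −0.97 to 0.49 (limma, adjusted p = 0.718), and it turned to 0.072 without control S592.

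Ly86, whose product is a secreted homologue of that of Ly96 and pairs with the receptor-like protein Cd180, read 44.7, 53.4 and 57.7 in the controls and 28.2, 22.8 and 38.9 in the knockouts. The groups were apart, with S599 nearest the controls. The means were 51.9 ± 6.62 and 30.0 ± 8.21, a 1.73-fold difference, with a log2 fold change of −0.80 and a 95% interval from −1.26 to −0.34 (limma, adjusted p = 0.121).

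Of the signalling genes, Myd88, the adaptor of nearly all the receptors and of the interleukin-1 receptor family, read 49.8, 50.6 and 67.6 in the controls and 44.1, 29.3 and 30.9 in the knockouts. Here S595, not S599, was the knockout nearest the controls. The log2 fold change was −0.68 with a 95% interval from −1.12 to −0.25 (limma, adjusted p = 0.129), with −0.33 when S595 was the lone knockout library, and 11.3% of the exon bases of Myd88 overlap Acaa1a on the other strand.

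Irak4, the kinase that Myd88 recruits first, read 19.5, 23.9 and 26.9 in the controls and 20.6, 13.4 and 14.9 in the knockouts. Knockout S595 lay among the controls, so the groups overlapped. The log2 fold change was −0.51 (limma, adjusted p = 0.207), with −0.17 when S595 was the lone knockout library, and 7.87% of its exon bases overlap Twf1 on the other strand.

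**Figure D2:**
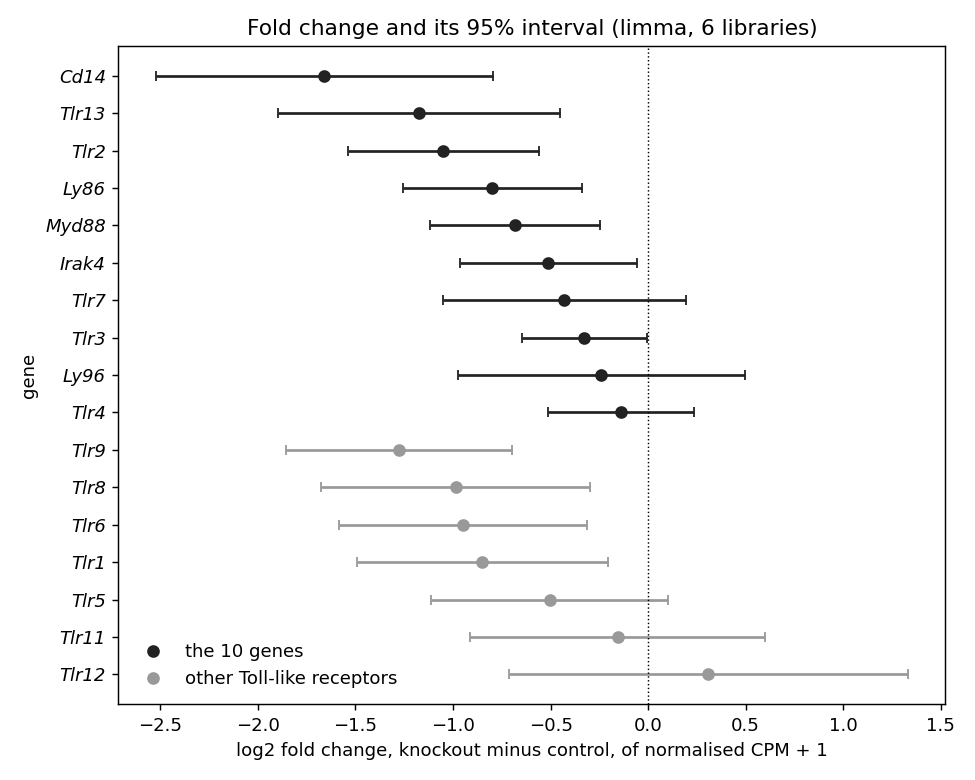
Log2 fold change of normalised CPM + 1, knockout minus control (x axis), with its 95% interval from limma, for the 10 genes (black) and the 7 other Toll-like receptor genes (grey). Intervals of Cd14, Tlr13, Tlr2, Ly86, Myd88, Irak4 and Tlr3 lie below 0, and those of Tlr4, Tlr7 and Ly96 include it.

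Promoter windows were available in the RefSeq table (build GRCm38.p6, not the build NCBIM37 of the processing notes) for 6 of the 10 genes. The 250 bases before the RefSeq transcription start are shown for Tlr2, Tlr13, Ly86 and Myd88, which are 4 of the 5 genes lower by DESeq2, with capitals for each match to the motifs searched on both strands.
Tlr2 chr3:83841609-83841858 (minus strand): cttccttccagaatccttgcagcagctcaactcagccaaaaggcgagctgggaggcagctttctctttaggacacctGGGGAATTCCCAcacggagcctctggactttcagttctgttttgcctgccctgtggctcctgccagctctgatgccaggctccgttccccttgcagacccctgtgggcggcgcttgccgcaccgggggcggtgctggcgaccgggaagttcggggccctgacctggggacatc
Tlr13 chrX:106143025-106143274 (plus strand): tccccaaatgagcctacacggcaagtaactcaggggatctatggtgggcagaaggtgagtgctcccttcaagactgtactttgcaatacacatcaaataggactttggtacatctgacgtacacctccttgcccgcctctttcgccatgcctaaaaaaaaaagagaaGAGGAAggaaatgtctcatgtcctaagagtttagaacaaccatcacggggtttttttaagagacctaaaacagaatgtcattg
Ly86 chr13:37345095-37345344 (plus strand): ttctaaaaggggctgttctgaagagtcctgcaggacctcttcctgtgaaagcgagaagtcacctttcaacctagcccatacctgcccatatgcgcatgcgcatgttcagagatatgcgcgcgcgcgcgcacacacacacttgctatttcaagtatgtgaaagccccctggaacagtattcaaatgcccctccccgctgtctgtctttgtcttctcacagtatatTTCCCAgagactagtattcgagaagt
Myd88 chr9:119340019-119340268 (minus strand): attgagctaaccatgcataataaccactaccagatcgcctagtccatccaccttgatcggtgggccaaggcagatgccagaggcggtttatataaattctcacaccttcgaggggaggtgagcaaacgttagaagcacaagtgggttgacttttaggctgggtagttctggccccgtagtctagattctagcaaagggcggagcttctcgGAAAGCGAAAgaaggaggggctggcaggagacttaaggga
The motifs were GAGGAA for PU.1 (a myeloid factor), GGG and CC with any 5 bases between them for NF-kappaB, GAAA and GAAA with any 2 bases between them for the interferon response element, TGGGAA for RBPJ and TGANTCA for AP-1, which 23.3%, 45.8%, 2.98%, 21.6% and 6.75% of all 32851 windows of the same length hold. Of the 6 windows, 3 held the NF-kappaB letters (Tlr2, Tlr3 and Irak4), 2 the RBPJ letters (Tlr2 and Ly86), 1 the PU.1 letters (Tlr13), 1 the interferon letters (Myd88) and 0 the AP-1 letters. In Tlr2 the capitals mark overlapping NF-kappaB matches, GGGGAATTCC and GGGAATTCCC, from 173 to 163 bases before the start, and the RBPJ letters read on the other strand (TTCCCA) overlap them, ending 162 bases before the start. The RBPJ letters of Ly86 lie 26 to 21 bases before the start. These are matches of letters and not measured sites. Positions are counted from the RefSeq start, and the nearest GENCODE M21 start lies 159 bases upstream of it for Tlr2, 46 upstream for Tlr13, 44 downstream for Ly86 and 16 downstream for Myd88.

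Per kilobase of the longest coding transcript (GENCODE M21), Cd14 ranked 3 in the controls and 6 in the knockouts, Tlr4 ranked 6 and 3, and Irak4 and Tlr3 exchanged the lowest places. In the controls the order was Ly86 (45.8 ± 5.84 CPM per kb), Myd88 (28.6 ± 5.11), Cd14 (27.4 ± 15.1), Tlr2 (19.3 ± 5.32), Tlr13 (17.0 ± 4.19), Tlr4 (13.8 ± 2.71), Ly96 (9.55 ± 4.70), Tlr7 (7.12 ± 1.503), Irak4 (6.82 ± 1.10) and Tlr3 (6.07 ± 0.531). Ly86 was separated from its neighbour by more than the SD of either, and each later pair of neighbours differed by less than the larger of their SDs. In the knockouts Ly86 (26.4 ± 7.24) and Myd88 (17.7 ± 4.14) again had the highest levels per kb. Tlr4 came next (12.4 ± 1.27), ahead of Tlr2 (9.03 ± 1.68), Tlr13 (7.69 ± 3.41), Cd14 (7.64 ± 1.96) and Ly96 (7.34 ± 1.15). The lowest were Tlr7 (5.35 ± 1.92), Tlr3 (4.81 ± 0.610) and Irak4 (4.74 ± 1.12). Neighbours from Tlr2 to Ly96 and from Tlr7 to Irak4 differed by less than the larger of their SDs.

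The ratio of 1 gene to another within a library, chosen after the values were seen, does not depend on the scaling between libraries. Cd14 over Tlr4 was 0.559, 0.568 and 1.25 in the controls and 0.279, 0.197 and 0.261 in the knockouts, with no overlap. These genes had the lowest and the highest log2 fold change of the 10 (−1.66 and −0.14), so their ratio largely restates those values. The share of all gene pairs whose ratios do not overlap was not computed. Ly96 over Tlr4 was 0.103 ± 0.0328 in the controls and 0.0916 ± 0.00602 in the knockouts, and the groups overlapped. Tlr7 over Tlr13 was 0.405 ± 0.0168 in the controls and 0.684 ± 0.0572 in the knockouts, again with no overlap. Myd88 over Irak4 was 2.39 ± 0.244 and 2.14 ± 0.0560, and Cd180 over Ly86 was 0.893 ± 0.0883 and 0.735 ± 0.119, both with overlapping groups. The groups also overlapped for Tlr6 over Tlr2 (0.141 ± 0.0264 and 0.136 ± 0.0376) and Tlr1 over Tlr2 (0.392 ± 0.0382 and 0.448 ± 0.108).

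The libraries shared an order across the genes. Control S591 was the lowest control for all 10 genes and knockout S598 the lowest knockout for 9 of them (Tlr3 was lowest in S595). Knockout S599 was the highest knockout for 8, and S595 for Myd88 and Irak4. As the mean of the 10 centred log2 levels, S591, S592 and S594 stood at 0.0077, 0.45 and 0.60, and S595, S598 and S599 at −0.29, −0.63 and −0.13. The smallest gap between a control and a knockout library on this mean was that between S591 and S599.

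**Figure D3:**
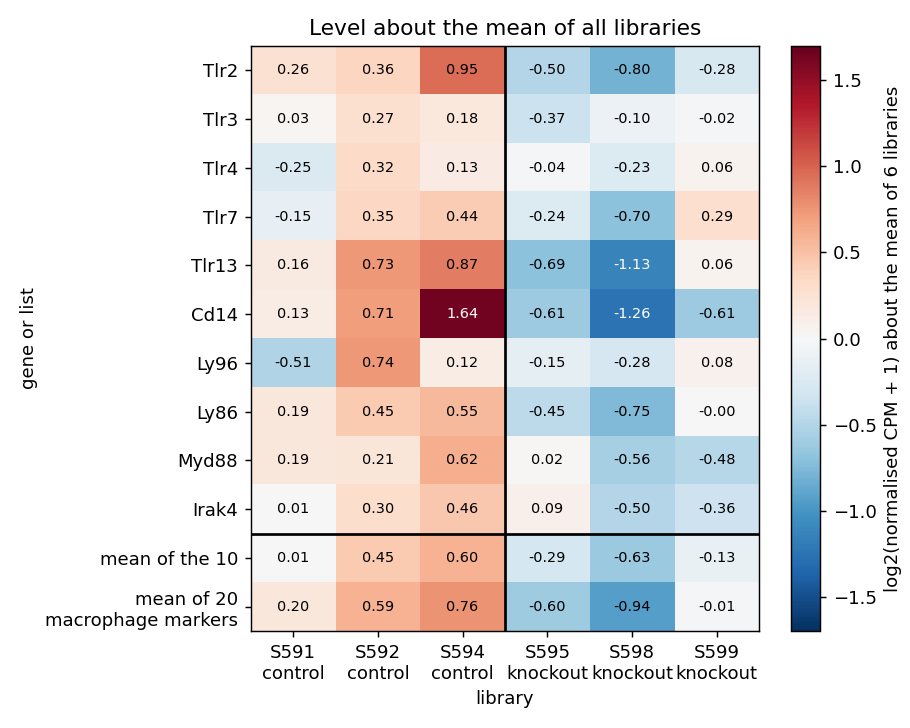
Log2(normalised CPM + 1) about the mean of the 6 libraries (colour and printed value) for each of the 10 genes, their mean and the mean of 20 macrophage markers (rows), in the 6 libraries (columns). Control S594 (up to 1.64, Cd14) and knockout S598 (down to −1.26, Cd14) are the extremes, while S591 and S599 lie near 0 for most genes.

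Profiles were compared over the 6 libraries by the root mean square difference of centred log2 levels, a description over libraries that differ in depth and group. The most alike pair of the 10 was Myd88 and Irak4 (0.12), followed by Tlr3 and Tlr4 (0.19) and Tlr2 and Ly86 (0.20). The least alike was Cd14 with Tlr4 (0.86). Among 11722 other genes with a mean of at least 5 CPM, the nearest to Tlr2 were Fes (0.060), Lrrc25 (0.073) and Nrp2 (0.089), and those nearest to Tlr13 were C3ar1 (0.083), Btk (0.089) and Rnf149 (0.089). Cd14 was nearest to Fgr (0.13), Treml2 (0.18) and the myeloid integrin gene Itgam (0.19). Ly86 was nearest to Mrgpre (0.064), Tbxas1 (0.067) and Slc35f6 (0.073). Myd88 was nearest to Nhp2 (0.054), Irak3 (0.084), an inhibitory relative of Irak4, and Aldh16a1 (0.089). Irak4 was nearest to Susd6 (0.023), a gene with no symbol in the table used (0.046) and Med8 (0.051). The neighbours of Tlr3 were Parp12, Plekhm3 and Atp6v0a1 (0.045 to 0.048), those of Tlr4 were Socs6, Btbd19 and Lsg1 (0.052 to 0.055), those of Tlr7 were Mlkl, Pianp and Il10rb (0.093 to 0.12), and those of Ly96 were Ece2, Gpr157 and Tnfsfm13 (0.088 to 0.15).

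The other genes of the pathway were taken from 6 lists with 74 genes, of which 71 were measured. By limma 0 of the 71 passed the adjusted threshold in either direction. At an unadjusted p of 0.05, 34 were lower and 1 higher, and the groups were apart with the knockout lower for 31 and higher for 1. Over all genes 12.0% were lower at that p and 14.2% were apart and lower, the shares against which the counts of each list below are to be read. Their median log2 fold change was −0.45.

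Of the 7 other Toll-like receptor genes, 6 had negative fold changes (median −0.85) and 2 had groups apart. Tlr9, which binds unmethylated CpG DNA, read 7.91, 10.9 and 13.4 in the controls and 3.73, 2.84 and 4.95 in the knockouts (log2 fold change −1.28, limma adjusted p = 0.107), with no overlap. Tlr6, a partner of Tlr2, stood at 7.92 ± 0.499 and 3.83 ± 1.71 (−0.95, adjusted p = 0.136), also with no overlap, and Tlr8 at 31.4 ± 5.68 and 16.2 ± 7.82 (−0.99, adjusted p = 0.143). Tlr1 and Tlr6 share much of their sequence, so reads may be divided between them with error. Tlr12 was the 1 gene with a positive fold change (0.31, adjusted p = 0.739).

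All 11 genes of coreceptors, chaperones and endosomal factors had negative fold changes (median −0.94), and 7 had groups apart. Cd180, the partner of Ly86, averaged 46.3 ± 6.56 in controls and 22.6 ± 9.41 in knockouts (log2 fold change −1.07, adjusted p = 0.122). Unc93b1, which carries the nucleic acid receptors to endosomes, stood at 149 ± 36.1 and 77.2 ± 26.2 (−0.96, adjusted p = 0.129), and Slc15a3, an endosomal peptide transporter, at 128 ± 26.9 and 54.1 ± 31.1 (−1.35, adjusted p = 0.131).

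The 18 adaptor, kinase and ligase genes had a median of −0.19, with 13 negative and 5 positive, and 3 had groups apart, a share near the 14.2% of all genes. Pik3ap1, an adaptor of phosphoinositide kinase in leukocytes, averaged 84.6 ± 25.7 in controls and 36.7 ± 11.4 in knockouts (log2 fold change −1.18, adjusted p = 0.121). The broadly expressed Traf3 (60.7 ± 2.34 and 51.4 ± 1.18) and the adaptor Tirap (13.0 ± 0.973 and 9.70 ± 1.02) had smaller differences, of −0.24 and −0.39 (adjusted p = 0.202 and 0.209). Among 6 transcription factors 2 had groups apart, Irf5 and Irf7. Irf5 averaged 45.1 ± 7.83 in controls and 24.2 ± 7.17 in knockouts (−0.90, adjusted p = 0.121), and Irf7 averaged 34.7 ± 12.2 and 17.9 ± 3.82 (−0.88, adjusted p = 0.143). Irf8 averaged 52.5 ± 13.5 and 29.4 ± 9.74 (−0.83, adjusted p = 0.159), and its groups overlapped. The NF-kappaB subunit genes had fold changes of −0.15 (Nfkb1) and 0.076 (Rela), with overlapping groups.

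Negative regulators went both ways, with 7 of the 10 measured negative and 3 positive. Dusp1, a phosphatase of stress kinases, read 78.3, 115 and 103 in the controls and 175, 332 and 231 in the knockouts, the 1 pathway gene with all knockouts above all controls (log2 fold change 1.28, limma adjusted p = 0.107). Nlrc5 stood at 33.7 ± 9.42 and 18.7 ± 2.02 (−0.78, adjusted p = 0.122), and Irak3 at 23.2 ± 4.22 and 14.3 ± 2.32 (−0.66, adjusted p = 0.127).

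All 19 measured genes that Toll-like receptors are known to induce had negative fold changes (median −0.80), and 14 had groups apart, with 0 past the adjusted threshold. Socs3, an inhibitor of cytokine signalling, had the smallest p of the list (log2 fold change −2.06, adjusted p = 0.0591). The chemokine gene Ccl4 stood at 5.14 ± 1.51 and 1.17 ± 0.578 (−1.51, adjusted p = 0.107), with 4, 10 and 11 reads in S595, S598 and S599. Tnf, Cxcl2 and Acod1, also with groups apart, had 2 to 8 reads in each knockout library. Nos2, the inducible nitric oxide synthase gene, read 20.7, 48.8 and 61.7 in the controls and 10.3, 4.87 and 10.3 in the knockouts (−2.17, adjusted p = 0.107). Control S591 was again the lowest control and still lay above the highest knockout.

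**Figure D4:**
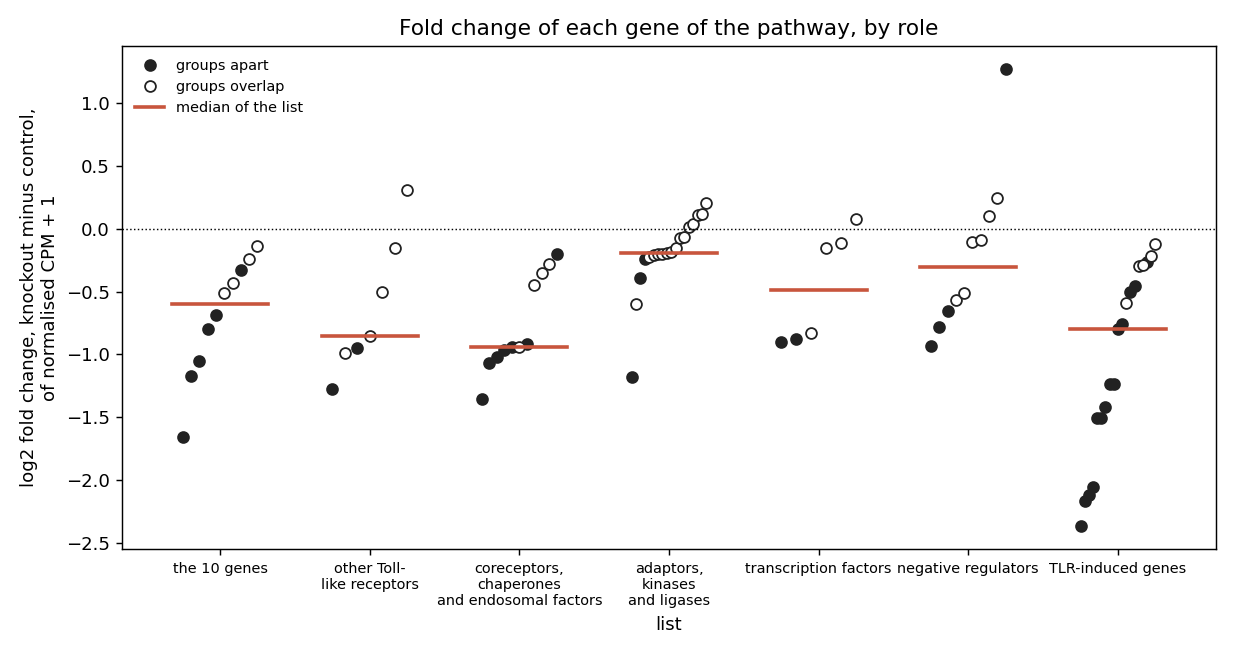
Log2 fold change of normalised CPM + 1, knockout minus control (y axis), for the 10 genes and the 71 other measured genes of the pathway by role (x axis), 1 point per gene, filled where the groups are apart, with the median of each list as a bar. Medians lie between −0.94 (coreceptors, chaperones and endosomal factors) and −0.19 (adaptors, kinases and ligases), and Dusp1 is the filled point above 0.

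Most macrophage markers also stood lower in the knockout arches. In bulk RNA fewer cells of a type and less RNA per cell cannot be told apart. Of 20 macrophage markers all were measured and none was at 0 reads in any library, 19 had negative fold changes (median −1.08, with 0 past the adjusted threshold and 16 apart), and their summed level was 7785 to 12571 in the controls and 3267 to 7722 in the knockouts. Over all genes 52.2% were negative and 14.2% were apart and lower, the shares beside which the marker counts here are to be read. Of 8 neutrophil markers 4 were measured, with a summed level of 36.1, 39.6 and 105 in S591, S592 and S594 and 18.4 to 29.9 in the knockouts. All 4 had negative log2 fold changes (median −1.24), with 0 past the adjusted threshold and 3 apart, while S100a8 overlapped. Cxcr2 had 3 reads in S595 and in S599. Of 8 dendritic cell markers all were measured, with sums of 189.6 to 263 in the controls and 97.6 to 221 in the knockouts. Itgax alone averaged 188 ± 40.4 and 113 ± 61.2 of these sums. The median log2 fold change of the 8 was −0.40, with 7 negative, 1 positive and 2 apart and lower. The 13 endothelial markers had a median log2 fold change of −0.033, with 7 negative and 6 positive. Among them 2 were apart and lower, Nos3 (−0.86, limma adjusted p = 0.107) and Plvap (−0.75, limma adjusted p = 0.136). All 8 fibroblast markers had negative log2 fold changes (median −0.43, 3 apart, 0 past the adjusted threshold), and their summed level was 12323 to 20034 in the controls and 8782 to 12059 in the knockouts, with no overlap. The part of cell numbers in the values of the 10 genes was not tested.

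Set against the mean log2 level of the 20 macrophage markers in the same library, the 10 genes divided. That mean was 1.03 lower (log2) in the knockouts. Tlr2 differed from it by −0.015 between the groups, Tlr13 by −0.14 and Cd14 by −0.62, each with overlapping groups. Tlr4 (0.90), Tlr3 (0.71), Tlr7 (0.61) and Ly86 (0.24) were higher against the macrophage mean in every knockout than in every control library. These 4 of 10 compare with 66.4% of all genes that were apart in that direction. Ly96 (0.80), Irak4 (0.52) and Myd88 (0.35) had positive differences with overlapping groups.

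**Figure D5:**
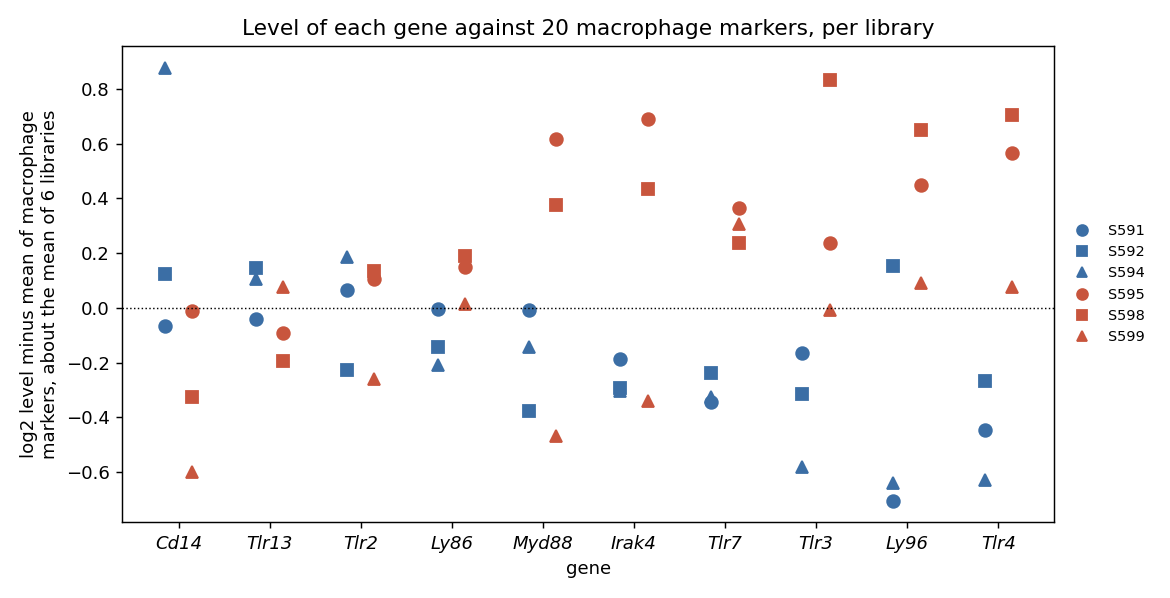
Log2 level of each of the 10 genes minus the mean of 20 macrophage markers in the same library, about the mean of the 6 libraries (y axis), for controls (blue) and knockouts (red), 1 symbol per library, ordered by the difference between the groups. Cd14, Tlr13 and Tlr2 have differences of −0.62, −0.14 and −0.015, and the knockouts lie above the controls for Ly86, Tlr7, Tlr3 and Tlr4.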

How the data were processed

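The deposited table holds, for 14298 genes and 6 libraries, a normalised signal made by the authors. The submitters' processing notes name CASAVA 1.8, cutadapt 1.6.1, RSEM 1.16, Bowtie 0.12.7, limma, edgeR and the build NCBIM37, without their roles, and the annotation is not given in the sources used here. From the values, each is (reads + 0.5) over a TMM-scaled library size, in CPM. Whole reads were recovered for 100% of values at a tolerance of 0.01 reads, and 1 read was worth 0.0964 to 0.178 CPM. The library preparation was TruSeq v2 with an RNA integrity of at least 7.9, per the labels' protocols. Symbols came from a table of another annotation release (13828 identifiers matched, 470 did not).

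Groups were compared by fitting limma 3.58.1 in R 4.3.3 to log2(value + 1), with a mean-variance trend, genotype as the only factor and Benjamini-Hochberg adjustment over all genes. The log2(value + 1) scale understates changes of low genes. Alternatives were other pseudocounts, filters, scalings, library weights and omitted libraries, edgeR 4.0.16, DESeq2 1.42.0 and limma-voom. The comparison was tested on simulated data. The members, lists and tests were chosen with earlier results of these data known. Genes named are the 10, the 3 of each pathway list with the smallest p and the 3 nearest in profile to each of the 10 (others, such as Tlr12, Nfkb1 and Rela, were named after their values were seen). Column headers show the group of a library, and their library numbers match no single sample.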

Additional observations from a re-analysis of the deposited data

How the results depend on the processing

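Of 170 values of the 10 genes under 17 alternatives, 157 kept their direction and their side of the threshold, 12 passed it where they had not (5 with DESeq2, 5 with library weights and 2 without control S591) and 1 changed sign, Ly96, whose log2 fold change ran from −0.55 (without control S591) to 0.072 (without control S592) with 1 library left out. The median of the 10 ran from −0.73 to −0.48. Genes called among the 10 numbered 0 in the reported fit, 5 with library weights, 5 with DESeq2 and 0 to 2 with 1 library left out (2 without control S591). Groups were apart for 6 of the 10 (14.2% of all genes were apart and lower), and for 6 to 10 with 1 library left out (16.2% to 22.6% of all genes). Without S591 the groups were apart for 10, where 22.5% of all genes were apart and lower. Without S598 and S599, where T cell and thymocyte markers summed highest, they were apart for 7 (30.7% of all genes) and the median was −0.49, with the lone knockout S595 assumed to vary like the controls. Pathway genes called numbered 0, against 19 with library weights (18 lower, 1 higher), 21 with DESeq2 (20 lower, 1 higher), and 0 to 10 with 1 library left out (10 without S591, all lower). Of the genes tested, 5.06% were called lower with library weights, 4.56% with DESeq2 and 3.29% without S591. Genes called over the whole table numbered 3 (2860 at an unadjusted p of 0.05), and 0 with a pseudocount of 0.5 or 0.1, with a mean of at least 5, with edgeR, with limma-voom or without S598 and S599. They numbered 1 without the variance trend, 1011 with library weights, 900 with DESeq2 and 0 to 671 with 1 library left out (671 without S591 and 6 without knockout S595). The cause of these differences was not tested. Of the 10 genes, depth limited Ly96 most, with 18 to 68 reads per library, and counting error does not cover variation between animals. No paired analysis was possible because the column names carry library numbers that match no replicate number of the labels.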

Other observations

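Sensors of microbial molecules outside the Toll-like family, in lists written after the values of the 10 genes had been seen, also stood lower in the knockout arches, with 0 past the adjusted threshold by limma. All 10 measured cytosolic sensor genes had negative log2 fold changes (median −0.68), 8 of them at an unadjusted p of 0.05, and 7 had groups apart, where 52.2% of all genes were negative, 12.0% lower at that p and 14.2% apart and lower. Macrophage markers (median −1.08) stood lower in the same libraries, and their part in these values was not tested. Zbp1, a sensor of Z-form nucleic acids, read 14.8, 16.8 and 23.6 in the controls S591, S592 and S594 and 10.1, 7.09 and 6.999 in the knockouts S595, S598 and S599 (log2 fold change −1.09, limma adjusted p = 0.107). Tmem173, the gene of STING, the adaptor of cytosolic DNA sensing, stood at 45.7 ± 11.6 and 21.0 ± 4.81 (SD, n = 3 each; −1.08, adjusted p = 0.107 by limma). Mavs, the adaptor of cytosolic RNA sensing, had a fold change of −0.027 (adjusted p = 0.926) with overlapping groups.

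A list of C-type lectin and scavenger sensors also held the formyl peptide receptor gene Fpr2. All 6 measured genes of this list had negative fold changes (median −1.35), and 5 had groups apart, against the same 52.2% and 14.2% of all genes. Clec4d, a lectin receptor of myeloid cells, read 15.4, 30.6 and 52.7 in the controls and 7.84, 4.97 and 6.53 in the knockouts (log2 fold change −2.04, limma adjusted p = 0.107), and its neighbour Clec4e stood at 13.9 ± 12.0 and 1.95 ± 1.15 (−2.12, adjusted p = 0.121). Clec7a, a receptor of fungal glucans, overlapped between the groups (106 ± 49.8 and 79.1 ± 38.5). Of 4 genes of interleukin-1 family receptors, which signal through Myd88, 3 had negative log2 fold changes (median −0.21) and 2, Il1r1 and Il18rap, had groups apart, while Il1rap (−0.068) and Il18r1 (0.0038) overlapped. Il1r1 read 105, 106 and 135 in the controls and 86.7, 92.6 and 89.7 in the knockouts (−0.35, adjusted p = 0.170 by limma).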
